A study of Mus musculus with 12 samples.

Results

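The enzymes that bring pyruvate and glutamine into the citric acid cycle, and the enzymes of the cycle itself, were followed in the RNA of mouse gastruloids kept without glucose, with extra glucose or with a glucose analog. They were 31 genes taken as a list from general knowledge of the pathway, of 38911 genes in the tables. No measured value was a criterion for a gene, but the list was chosen with earlier results of these data known. By role, 8 act at the entry of pyruvate, 12 in the mitochondrial cycle, 5 are cytosolic counterparts or malic enzymes, 4 handle glutamate and glutamine, and 2 are carriers of the inner mitochondrial membrane. All 31 passed the filter on low counts, so that each had a test in every comparison.

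Pyruvate made by glycolysis crosses the inner mitochondrial membrane through a carrier of the subunits *Mpc1* and *Mpc2*, and is then turned into acetyl-CoA by the pyruvate dehydrogenase complex or into oxaloacetate by pyruvate carboxylase. Citrate synthase joins acetyl-CoA and oxaloacetate, and the cycle oxidizes the product back to oxaloacetate, giving electrons to the respiratory chain and carbon to synthesis. Glutamine, through glutamate, is the other main source of carbon for the cycle in growing embryonic cells, and embryos before implantation can live on pyruvate.

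Gastruloids are aggregates of embryonic stem (ES) cells that elongate and form an axis in culture. Here they were grown from 200 cells each of E14TG2a, a mouse ES cell line kept in 2i and LIF, and collected on day 4. The 4 treatments were 1x glucose (21.25 mM), 0x glucose (no glucose), 3x glucose (63.75 mM) and 5 mM 2-DG (2-deoxy-D-glucose, which hexokinase phosphorylates but glycolysis cannot use further) in 1x glucose. Each treatment had 3 libraries, from ES cell passages 13, 15 and 16, which makes 12 libraries. According to the methods, a library held pooled gastruloids of 1 treatment from a plate, all gastruloids received the Wnt agonist CHIR99021 before treatment, and the ES cells had been kept on fibroblasts in their first passages. The glucose-free medium was brought back to a set level of sodium pyruvate, so that gastruloids in 0x glucose still had pyruvate outside the cell. The 2-DG stock was made in PBS, and the labels of the 1x glucose libraries, its control here, name no PBS. The labels do not say when each treatment began, and the paper describes these treatments between days 3 and 4. All libraries come from a single cell line.

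Totals were 31902471 to 45956080 estimated counts per library, and the 31 genes together took 0.444% to 0.469% of them. Markers of the primitive streak and early mesoderm had the lowest sums in 2-DG. Over 10 genes the sum was 889.9 to 932 counts-per-million (CPM) in 1x glucose, 882 to 963 in 0x, 889 to 981 in 3x and 418 to 640.0 in 2-DG. Of the 10, 4 were called lower in 2-DG than in 1x glucose (*T*, *Wnt3a*, *Mixl1* and *Evx1*, named after their values were seen), and 2 had a change above 0. Of all genes tested, 8.51% were called lower and 9.12% higher in this comparison. Of 10 neural progenitor markers 3 were higher (*Sox1*, *Pax6* and *Neurog2*) and 4 had a change below 0, down to -1.47 for *Olig2* (adjusted p = 0.52), with sums of 201 to 339.99 CPM in 1x glucose and 221 to 398 in 2-DG. Of the 5 pluripotency markers tested none was called in that comparison and 1 had a change below 0, but 3 had an unadjusted p under 0.05. The sum over the list of 6 was 35.0 to 48.5 CPM in 1x glucose and 53.6 to 65.9 in 2-DG. In a fit with passages paired (a replicate block), 41.3% of all genes were called. There 6 streak markers were lower, 5 neural markers were higher and *Nes* was lower, and 3 pluripotency markers were higher (*Pou5f1*, *Nanog* and *Esrrb*). In that fit 3 streak markers had a change above 0 and 1 pluripotency marker had a change below 0, none of them called. Fibroblast markers, which would mark feeder cells of the early passages, summed to 9.57 to 16.2 CPM in all libraries, with *Lum* at 0 in 11 of 12 libraries and none of the 4 tested called, or under an unadjusted p of 0.05, in 2-DG against 1x glucose. With the block, *Col1a2* and *Col3a1* of them were lower and *Thy1* was higher. In these pooled samples, fewer cells of a type and less RNA per cell cannot be told apart, and the part of the shift in markers in any result below was not tested.

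The enzymes were not expressed alike. Per kilobase of transcript, *Mdh2*, the mitochondrial malate dehydrogenase, had the highest level in 1x glucose at 206 ± 7.17 CPM per kb (SD, n = 3). It was followed by *Got2*, the mitochondrial aspartate aminotransferase, at 140.1 ± 9.69, and by *Cs*, citrate synthase, at 112 ± 6.497. *Mdh1*, the cytosolic malate dehydrogenase, came next at 107.9 ± 13.02 and *Pdha1*, the catalytic subunit of pyruvate dehydrogenase, at 106 ± 3.89, so that these 2 and *Cs* did not differ beyond their spread. The lowest 4 were *Mpc2* at 10.5 ± 1.63, *Me1*, cytosolic malic enzyme, at 7.64 ± 1.96, *Pc*, pyruvate carboxylase, at 7.46 ± 1.05, and *Mpc1* at 6.19 ± 0.268, with overlapping spreads for *Me1*, *Pc* and *Mpc1*. The value of *Mpc1* is uncertain, since its counts were divided by the length of NM_018819.5 (958 bases), which had 0 counts in all 12 libraries. Its level per kb and its order among the lowest 4 rest on that length.

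In 2-DG against 1x glucose, pyruvate carboxylase and the pyruvate carrier subunit *Mpc1* fell, fumarase (*Fh1*) fell, and citrate synthase, mitochondrial isocitrate dehydrogenase (*Idh2*) and cytosolic malate dehydrogenase (*Mdh1*) rose. These were 6 of the 31 genes called by edgeR's quasi-likelihood test at a Benjamini-Hochberg adjusted p under 0.05 over 16966 genes, 3 higher and 3 lower. Of all genes tested, 17.6% were called in this comparison, 9.12% higher and 8.51% lower, so that the share of the 31 called was near that of all genes. The median log2 fold change over the 31 was 0.04, against 0.00 over all genes, and the median size of the change was 0.12 against 0.20. Libraries of the same passage deviated together (the check is given with the processing), and with the passage as a replicate block 14 of the 31 were called, 9 higher and 5 lower, where 41.3% of all genes were called. The 8 genes added by the paired fit, *Pdha1*, *Idh3a*, *Idh3b*, *Dlst*, *Aco1*, *Glul*, *Got1* and *Slc25a1*, moved by at most 0.14 on the log2 scale.

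**Figure D1:**
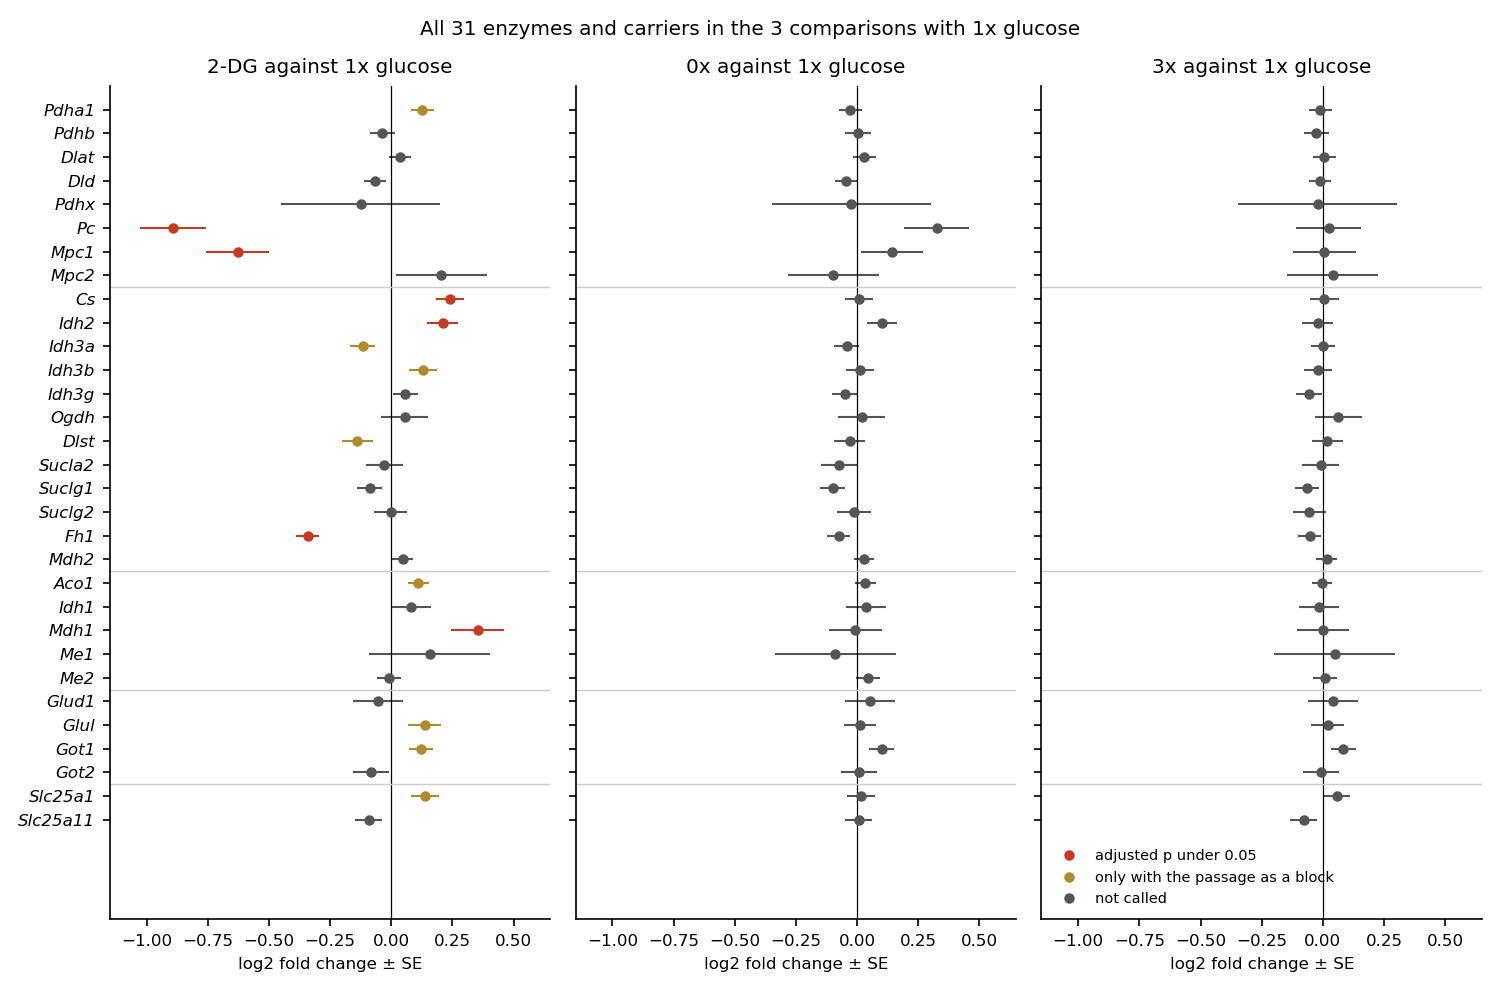
Log2 fold change and standard error (edgeR, 3 libraries a group) of all 31 genes in 2-DG, 0x glucose and 3x glucose against the same 1x glucose libraries, on the x axis, with genes grouped by role on the y axis from pyruvate entry at the top to carriers at the bottom. Red points are called, ochre points are called only with the passage as a block, and grey points are not called; the 6 red points are all in the panel of 2-DG.

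Shown with the DNA before their start sites are genes called with the glucose analog both against its control and against gastruloids without glucose. The calls of *Mdh1* lay close to the threshold, as described below. The sequences are the 250 bases upstream of the annotated start of the gene in the GRCm38.p6 assembly from RefSeq, read 5′ to 3′ on its strand. *Mpc1* was also called in both comparisons and is not shown. The division of its counts among transcripts was not stable, as described below. Capitals mark the E-box CACGTG, the only match of the motifs searched in these 4 stretches.
Pc, chr19:4510222-4510471, plus strand, fell: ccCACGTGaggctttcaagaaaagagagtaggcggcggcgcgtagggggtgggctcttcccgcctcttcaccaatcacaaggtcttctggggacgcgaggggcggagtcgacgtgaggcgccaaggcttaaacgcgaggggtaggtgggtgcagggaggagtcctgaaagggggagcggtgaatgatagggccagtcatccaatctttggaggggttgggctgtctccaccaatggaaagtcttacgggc
Fh1, chr1:175625636-175625885, minus strand, fell: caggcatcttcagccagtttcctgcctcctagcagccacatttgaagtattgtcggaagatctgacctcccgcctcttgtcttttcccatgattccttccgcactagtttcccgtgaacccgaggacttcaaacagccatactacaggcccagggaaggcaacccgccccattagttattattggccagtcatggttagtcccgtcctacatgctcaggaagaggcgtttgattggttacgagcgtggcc
Cs, chr10:128337477-128337726, plus strand, rose: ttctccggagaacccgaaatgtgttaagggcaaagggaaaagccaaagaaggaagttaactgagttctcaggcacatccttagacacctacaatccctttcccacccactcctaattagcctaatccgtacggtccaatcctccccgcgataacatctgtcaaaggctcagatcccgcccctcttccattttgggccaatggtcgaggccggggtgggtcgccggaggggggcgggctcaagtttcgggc
Mdh1, chr11:21571935-21572184, minus strand, rose: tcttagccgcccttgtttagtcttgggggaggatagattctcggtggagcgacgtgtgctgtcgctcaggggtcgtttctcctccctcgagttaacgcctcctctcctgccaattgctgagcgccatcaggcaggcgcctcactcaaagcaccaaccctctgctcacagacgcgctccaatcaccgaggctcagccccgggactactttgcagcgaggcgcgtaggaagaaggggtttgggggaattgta

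All counts of *Pc* came from 1 of its 3 listed transcripts, whose start was not compared with the first of these stretches. The bases were 60.8% G or C in *Pc*, 52.8% in *Fh1*, 55.2% in *Cs* and 59.2% in *Mdh1*, against a median of 52.0% over the first promoter of 27025 genes and 61.6% over the 29 of the 31 genes that matched the promoter table, which were all but *Idh3a* and *Me2*. Over the whole 300 bases of that table, from 250 before to 50 after the start, 7 motifs were searched on both strands. TGACNNNGC, the core of the antioxidant response element, was in 7 of the 29 genes (24.1%) and in 13.99% of all genes. The 7 were *Dlst*, *Idh3g*, *Mdh1*, *Me1*, *Mpc1*, *Pdhb* and *Sucla2*, of which *Mdh1* rose and *Mpc1* fell. CACGTG was in 3 (*Ogdh*, *Pc* and *Slc25a1*) and in 8.09% of all genes, TGACGTCA in 2 (*Mdh2* and *Ogdh*) and in 2.03%, GCGCATGCG in *Ogdh* and in 1.95%, and TGATGCAA in *Got1* and in 1.03%. TCAAGGTCA and TCACCCCAC were in none of the 29. TGACGTCA and TGACNNNGC begin with the same letters but cannot overlap, and *Mdh2* and *Ogdh* were not among the 7. A match is a description of letters, not of a site that is bound.

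Pyruvate carboxylase, which makes oxaloacetate from pyruvate and so refills the cycle, changed most of the 31. *Pc* (chr19:4510472-4621752) was at 29.6, 27.4 and 35.8 CPM in 1x glucose and at 14.6, 15.9 and 19.7 CPM in 2-DG, in the order of passages 13, 15 and 16. Every 2-DG library lay below every library of the other treatments. The level in 2-DG was 0.539 of that in 1x glucose, a log2 fold change of -0.89 ± 0.13 (SE, adjusted p = 0.0019 in edgeR), and within passages the difference was -1.02 to -0.79. Without glucose, *Pc* was at 36.3, 38.0 and 42.3 CPM, above every 1x glucose library. That difference of 0.33 ± 0.13 on the log2 scale had an unadjusted p of 0.032 and an adjusted p of 1, or 0.16 with the replicate block, and was not called. Against 0x glucose, the 2-DG libraries were lower by -1.22 ± 0.14 (adjusted p = 0.00036). In 3x glucose the 3 values were 30.6, 28.7 and 35.1 CPM, higher than 1x glucose by 0.02 on the log2 scale.

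**Figure D2:**
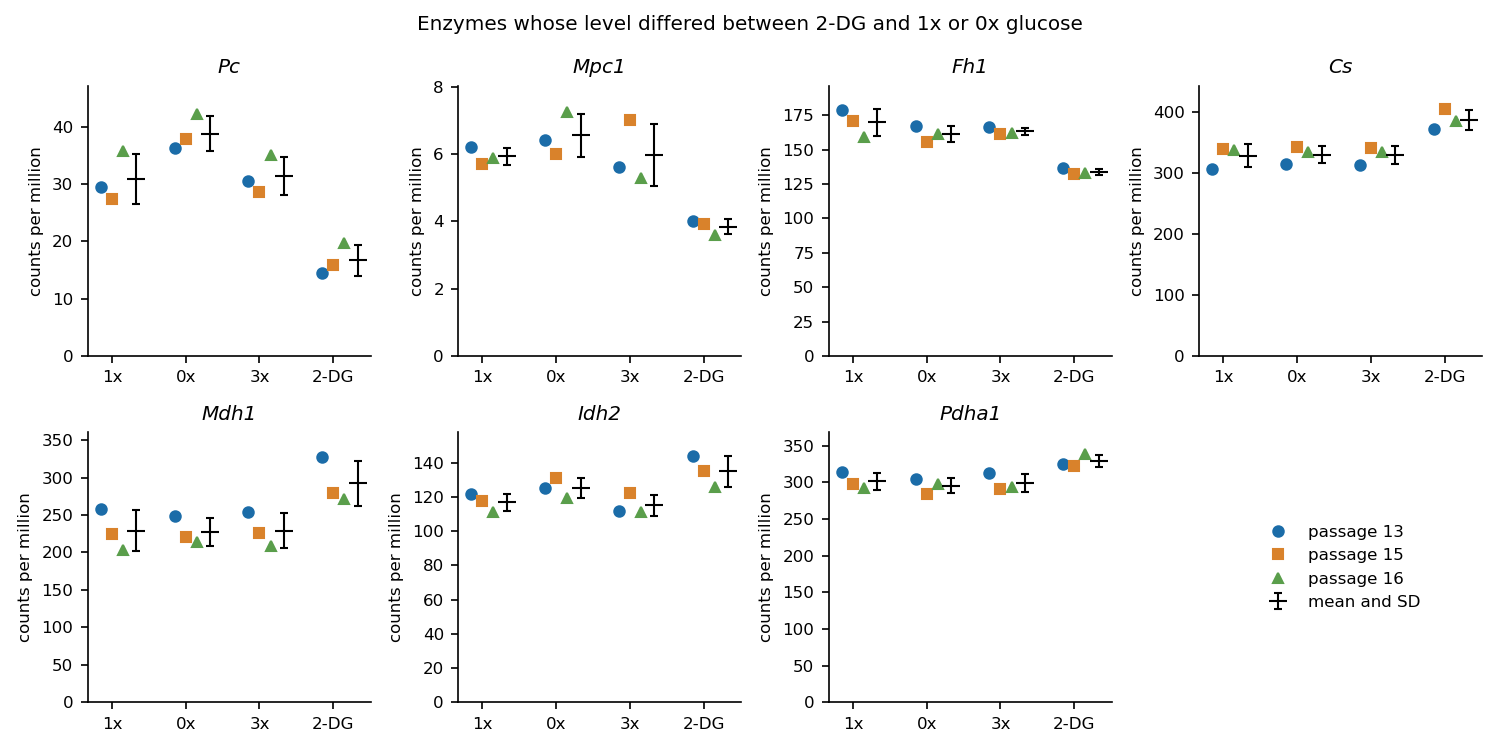
CPM (y axis, from 0) of the 7 genes called in 2-DG against 1x or 0x glucose, by treatment (x axis), with 1 point a library, its colour and shape giving the ES cell passage, and the mean and SD of 3 libraries beside. The 2-DG points lie below all others for Pc, Mpc1 and Fh1 and above all others for Cs, Mdh1 and Pdha1, while for Idh2 the lowest 2-DG point at 126 lies under the highest 0x glucose point at 131.

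The subunits of the mitochondrial pyruvate carrier are described together. *Mpc1* (chr17:8283787-8297667) was at 6.21, 5.71 and 5.88 CPM in 1x glucose, at 6.41, 6.004 and 7.24 in 0x glucose, at 5.599, 7.01 and 5.28 in 3x glucose and at 4.01, 3.92 and 3.60 in 2-DG. The 2-DG libraries were lowest, at 0.648 of 1x glucose (log2 fold change -0.63 ± 0.13, adjusted p = 0.0086) and 0.587 of 0x glucose (-0.77 ± 0.13, adjusted p = 0.0030). Its partner *Mpc2* was at 12.7, 9.97 and 9.61 CPM in 1x glucose and 14.3, 12.6 and 10.2 in 2-DG, groups that overlap (0.20 ± 0.19, adjusted p = 0.51). *Mpc1* rested on only 135 to 283 counts per library, their division among its transcripts was not stable, as described below, and 23.1% of its exon bases are shared with *4930506C21Rik* on the opposite strand. With only its curated transcripts, which hold 25.1% of its counts, the fitted change was 2.16 in the other direction (adjusted p = 0.31), and with the most abundant transcript alone it was -1.37 (adjusted p = 0.65).

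Of the pyruvate dehydrogenase complex no subunit was called against 1x glucose without the pairing, and *Pdha1* was called against 0x glucose. *Pdha1* (chrX:160122219-160138430) was at 313, 298 and 292 CPM in 1x glucose, 304, 284 and 298 in 0x glucose, 313, 291 and 293 in 3x glucose and 325, 323 and 338 in 2-DG. The 2-DG values were above all the others, by 0.15 ± 0.05 against 0x glucose (adjusted p = 0.044) and by 0.13 ± 0.05 against 1x glucose, where the call depended on the pairing (adjusted p = 0.094, or 0.016 with the replicate block). Leaving out any of the 6 libraries compared lost the call against 0x glucose (adjusted p 0.052 to 0.15), namely 0.052, 0.15 and 0.095 without 0x passage 13, 15 and 16, and 0.083, 0.083 and 0.13 without 2-DG passage 13, 15 and 16. *Pdha1* shares 16.2% of its exon bases with *Map3k15* on the opposite strand, and, as for *Mpc1*, the strand setting of the counting is not given in the sources used here, so that reads of the overlapping genes may not be told apart. *Pdhb*, the other subunit of this first enzyme, was at 102, 104 and 92.4 CPM in 1x glucose and 100.2, 94.9 and 96.2 in 2-DG. *Dlat*, the acetyltransferase core, was at 92.5, 95.4 and 96.6 CPM and 92.5, 98.6 and 101, and *Dld*, the dehydrogenase shared with the 2-oxoglutarate complex, at 181, 178 and 169 and 173, 169 and 162. *Pdhx*, which anchors *Dld* to the core, ranged from 52.6 to 107 CPM in 1x glucose alone and from 60.4 to 91.1 in 2-DG. Groups overlapped for each of these 4 subunits, and log2 fold changes were -0.13 to 0.04.

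Within the mitochondrial cycle, the first enzyme rose and fumarase fell, while most of the subunits between them did not pass the test. Of the 12 genes 3 were called, 2 higher and 1 lower. Of all genes 17.6% were called in 2-DG against 1x glucose, 9.12% higher and 8.51% lower. *Cs* (chr10:128337727-128362482) was at 306, 339.8 and 338 CPM in 1x glucose, 314, 342 and 333 in 0x glucose, 312, 341 and 334 in 3x glucose and 372, 405 and 385 in 2-DG. The 3 groups without 2-DG overlapped one another, and 2-DG lay above them all, by 0.24 ± 0.06 against 1x glucose (adjusted p = 0.018) and 0.23 ± 0.06 against 0x glucose (adjusted p = 0.019). Without the 1x library of passage 13 the change in *Cs* was 0.19 (adjusted p = 0.056), and without the 2-DG library of passage 15 it was 0.20 (adjusted p = 0.068). Against 0x glucose, the call was lost without the 0x library of passage 13 (adjusted p = 0.059) and without the 2-DG library of passage 15 (adjusted p = 0.063).

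Fumarase, which hydrates fumarate to malate, fell in every passage, by -0.39 to -0.26 on the log2 scale. *Fh1* (chr1:175601378-175625635) was at 179, 171 and 159 CPM in 1x glucose, 167, 156 and 161 in 0x glucose, 166, 162 and 162 in 3x glucose and 136, 132 and 133 in 2-DG. The values of 2-DG lay below all the rest, at 0.789 of 1x glucose (-0.34 ± 0.05, adjusted p = 0.0012) and 0.831 of 0x glucose (-0.27 ± 0.05, adjusted p = 0.0037). *Pc* and *Fh1* were called in both comparisons under all 13 alternatives tried for each.

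The isocitrate dehydrogenases of the mitochondrion use NADP or NAD. *Idh2* (chr7:80094845-80118608), the mitochondrial enzyme that yields NADPH, was at 122, 118 and 111 CPM in 1x glucose, 125, 131 and 119 in 0x glucose, 112, 122 and 111 in 3x glucose and 144, 135 and 126 in 2-DG. It was higher in 2-DG than in 1x glucose by 0.21 ± 0.06 (adjusted p = 0.044) and did not pass against 0x glucose, where the groups overlapped (0.11 ± 0.06, adjusted p = 0.27). The call was lost without the 1x library of passage 15 or 16 (adjusted p = 0.12 and 0.14) and without the 2-DG library of passage 13 or 15 (adjusted p = 0.15 and 0.11). Of the NAD-dependent enzyme, *Idh3a* was at 94.1, 87.3 and 90.01 CPM in 1x glucose and 83.7, 82.3 and 84.4 in 2-DG, and *Idh3b* at 133, 126 and 122 CPM and 149, 132 and 136. These 2 subunits pointed in opposite directions (-0.12 ± 0.05 and 0.13 ± 0.06), with adjusted p of 0.14 and 0.16, or 0.017 and 0.0058 with the replicate block. *Idh3g* overlapped between the groups, at 139, 141 and 127 CPM and 148, 138 and 138.

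Of the 2-oxoglutarate dehydrogenase complex, *Dlst*, the succinyltransferase, was at 215, 234 and 235 CPM in 1x glucose and 192, 215 and 215 in 2-DG, lower in each passage and without overlap (-0.14 ± 0.06, adjusted p = 0.16, or 0.0016 with the replicate block). *Ogdh*, the first enzyme of that complex, was at 112, 135 and 142 CPM and 121, 145 and 139 (0.05 ± 0.10). The succinyl-CoA ligase genes *Suclg1*, *Sucla2* and *Suclg2* had changes of -0.09, -0.03 and 0.00. Of these 5 genes *Dlst* alone was called against 1x glucose, and only with the passages paired.

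Among the cytosolic counterparts, *Mdh1*, which links the cytosolic NADH pool to malate, rose. *Mdh1* (chr11:21556692-21571934) was at 259, 225 and 204 CPM in 1x glucose, 249, 220.4 and 214 in 0x glucose, 254, 226 and 208 in 3x glucose and 327, 279 and 271 in 2-DG. Every 2-DG library lay above every other, and within passages the difference was 0.31 to 0.41 on the log2 scale. The change was 0.35 ± 0.11 (adjusted p = 0.046) against 1x glucose and 0.36 ± 0.11 (adjusted p = 0.041) against 0x glucose, and with the replicate block the adjusted p was 1.9e-05 and 1.5e-05. In the unpaired fit the call against 1x glucose was lost without the 1x library of passage 15 or 16 (adjusted p = 0.14 and 0.15) and without the 2-DG library of passage 13, 15 or 16 (adjusted p = 0.16, 0.086 and 0.059). Against 0x glucose it was lost without 0x passage 15 or 16 (adjusted p = 0.12 and 0.13) and without 2-DG passage 13, 15 or 16 (adjusted p = 0.14, 0.069 and 0.0503). The mitochondrial *Mdh2* was at 296, 312 and 292 CPM in 1x glucose and 311, 315 and 304 in 2-DG, with overlapping groups (0.05 ± 0.04).

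The ratio of the cytosolic to the mitochondrial enzyme was therefore taken in each library, as total counts without regard to length. *Mdh1*/*Mdh2* was 0.873, 0.721 and 0.698 in 1x glucose and 1.05, 0.886 and 0.893 in 2-DG, higher in 3 of 3 passages and without overlap, by 0.31 on the log2 scale. Two-sided exact permutation gave p = 0.1, the smallest that 3 against 3 libraries allow, and 0.4 after adjustment over the 4 pairs tested. *Got1*/*Got2*, of the aspartate aminotransferases, was 0.2397, 0.223 and 0.199 in 1x glucose and 0.286, 0.247 and 0.231 in 2-DG (difference 0.21, exact p = 0.2), and within passages it differed by 0.15 to 0.26. *Idh1*/*Idh2* differed by -0.13 (exact p = 0.3), or -0.18 to -0.04 within passages. *Me1*/*Me2* differed by 0.16 (exact p = 0.7), or 0.15 to 0.18 within passages, beside ratios of 0.118 to 0.213 across the passages in 1x glucose. This permutation does not use the pairing of passages and could not pass the threshold for any pair. Each of the 4 ratios moved in 1 direction in 3 of 3 passages, and for *Mdh1*/*Mdh2* alone the groups did not overlap.

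None of the other 4 genes of this role was called without the pairing. *Aco1*, cytosolic aconitase and an iron sensor, was at 179, 189 and 188 CPM in 1x glucose and 194, 204 and 203 in 2-DG, higher in each passage by 0.11 to 0.12 (adjusted p = 0.097, or 0.0045 with the replicate block). *Idh1*, the cytosolic isocitrate dehydrogenase, was at 158, 175 and 156 CPM and 168, 177 and 172, and *Me2*, mitochondrial malic enzyme, at 155, 151 and 147 and 153, 151 and 147. Groups overlapped for *Idh1*, *Me2* and *Me1*, and *Me1* is described with the passages.

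Of the 4 genes for glutamate and glutamine none was called without the pairing, where 17.6% of all genes were called. There 1 of the 4 had an unadjusted p under 0.05. With the pairing 2 were called, where 41.3% of all genes were. *Glul*, glutamine synthetase, was at 179, 195 and 203 CPM in 1x glucose and 205, 219.6 and 209.7 in 2-DG, without overlap (0.14 ± 0.07, adjusted p = 0.19, or 0.0076 with the replicate block). *Got1* was at 78.6, 80.14 and 74.7 CPM and 85.9, 87.9 and 80.18, barely apart (0.12 ± 0.05, adjusted p = 0.13, or 0.011 with the block). *Glud1*, glutamate dehydrogenase, gave -0.05 ± 0.10 and *Got2* -0.08 ± 0.07, both with overlapping groups. *Got2* has a near-identical copy that is counted as *Gm10874* (98.8% identity over 1637 bases), so its counts are uncertain to the extent that reads were split between them.

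The carriers *Slc25a1*, which exports citrate, and *Slc25a11*, which exchanges 2-oxoglutarate for malate, pointed in opposite directions. *Slc25a1* was at 85.4, 83.1 and 77.9 CPM in 1x glucose and 96.0, 88.6 and 86.5 in 2-DG, just apart (0.14 ± 0.06, adjusted p = 0.12, or 0.0399 with the replicate block). *Slc25a11* was at 82.4, 76.7 and 75.3 CPM and 78.7, 71.9 and 69.5, with overlap (-0.09 ± 0.05, adjusted p = 0.29).

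Genes around these enzymes were counted by list. Of 13 tested genes for glutamine uptake and use, anaplerosis and the related carriers, 7 were higher than in 1x glucose and none lower, where 9.12% of all genes were higher, and their median change was 0.23 against 0.00 over all genes. *Pck2*, the mitochondrial phosphoenolpyruvate carboxykinase, which draws oxaloacetate out of the cycle, was at 22.5, 18.7 and 20.3 CPM in 1x glucose and 40.6, 37.3 and 30.8 in 2-DG (0.82 ± 0.12, adjusted p = 0.0016). *Slc1a5*, a glutamine transporter, was at 23.4, 17.5 and 21.5 CPM and 41.6, 33.7 and 29.2 (0.74 ± 0.15, adjusted p = 0.0074). Neither gene had overlapping groups, and in 0x glucose they were at 17.6 to 19.5 and at 19.1 to 21.2 CPM. *Gpt2*, the mitochondrial alanine aminotransferase, changed by 0.55 ± 0.09, *Slc25a10*, the dicarboxylate carrier, by 0.44 ± 0.06, and *Slc25a12*, an aspartate-glutamate carrier, by 0.42 ± 0.09. *Slc25a22*, a mitochondrial glutamate carrier, was lower against 0x glucose (-0.29 ± 0.09, adjusted p = 0.037), and its change against 1x glucose was -0.14 ± 0.08 (adjusted p = 0.28, or 0.016 with the replicate block).

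Of 6 tested regulators of pyruvate dehydrogenase, *Pdk3*, a kinase that inactivates the complex, was higher in 2-DG (76.4, 84.7 and 84.1 CPM in 1x glucose, 106, 97.4 and 96.6 in 2-DG, 0.29 ± 0.08, adjusted p = 0.026). *Pdpr*, the regulatory subunit of the phosphatase that reactivates it and named after its values were seen, was lower (102, 101 and 103 against 89.9, 86.8 and 88.5 CPM, -0.20 ± 0.04, adjusted p = 0.0069). *Pdp1*, a catalytic subunit of that phosphatase, was lower by -0.49 ± 0.15 against 0x glucose (adjusted p = 0.044) and by -0.45 ± 0.15 against 1x glucose (adjusted p = 0.064, or 0.029 with the replicate block). None of 3 genes for making lipoate, the cofactor of *Dlat* and *Dlst*, was called or had an unadjusted p under 0.05, and with the block *Lias*, lipoic acid synthase, was lower (-0.16 ± 0.04, adjusted p = 0.0081).

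**Figure D3:**
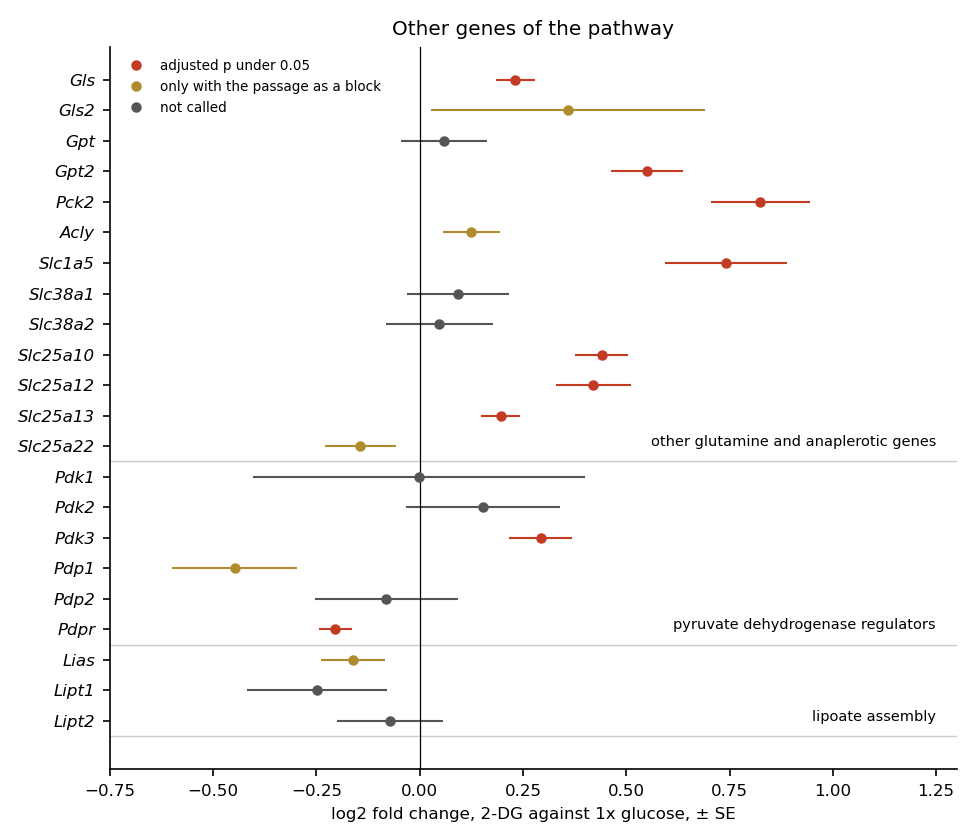
Log2 fold change in 2-DG against 1x glucose with its standard error (x axis; edgeR, 3 libraries a group) for genes of the pathway outside the 31, in 3 lists separated by grey lines (y axis). Red points are called, ochre points only with the passage as a block, grey points neither; 7 of 13 glutamine and anaplerotic genes are red and to the right of 0.

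Against 0x glucose, 2-DG was compared to ask whether its differences were also differences from gastruloids lacking glucose. Again 6 of the 31 were called, 3 higher (*Cs*, *Mdh1* and *Pdha1*) and 3 lower (*Pc*, *Mpc1* and *Fh1*), where 18.9% of all genes were called. With the replicate block 13 were called, 7 higher and 6 lower, of 43.1% of all genes. Both comparisons use the same 2-DG libraries, so they are not independent. The block added *Aco1*, *Dlst*, *Glul* and *Idh3b*, each in the direction it had against 1x glucose. It also added *Glud1* (-0.11 ± 0.03, adjusted p = 0.012) and *Slc25a11* (-0.10 ± 0.04, adjusted p = 0.046) to the lower genes and *Me1* (0.22 ± 0.07, adjusted p = 0.035) to the higher, none of which it called against 1x glucose.

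No difference was detected in the 31 genes after withdrawal or excess of glucose. Against 1x glucose none of the 31 was called in 0x or in 3x glucose by edgeR, where 0.0118% and 0% of all genes were called. At an unadjusted p under 0.05 there was 1 gene in 0x glucose (*Pc*, chosen after its values were seen) and 0 in 3x glucose, and with the replicate block 4 and 1. The share of all genes at that unadjusted p was not taken. DESeq2 called 0 in either comparison. Log2 fold changes ran from -0.10 to 0.33 in 0x glucose and from -0.08 to 0.08 in 3x glucose, with medians of 0.01 and 0.00. The 95% intervals of the paired fit lay within 0.5 of no change on the log2 scale for 31 of 31 genes in both comparisons, and those of the unpaired fit for 27 and 29. The median half-width was 0.13 unpaired and 0.07 paired, and differences smaller than these could not be resolved at this number of libraries. For *Pc* in 0x glucose the paired interval was 0.199 to 0.465, although the gene was not called after adjustment over all genes.

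In the fit with the replicate block, more of the 31 genes were called between ES cell passages than in either 2-DG comparison. That fit called 14 in 2-DG against 1x glucose and 13 against 0x glucose. The test between passages takes 3 passages at once, so these counts are not of like tests. With treatment in the model, 21 of the 31 (67.7%) differed between passages 13, 15 and 16, where 46.2% of all genes did. Each passage gave 1 library of each of the 4 treatments, and the labels do not say whether these came from 1 culture. The test therefore compares 3 sets of libraries and anything that differed between them. *Pdhx* had the highest F statistic. It was at 52.6, 55.2, 51.8 and 60.4 CPM in passage 13 (1x, 0x, 3x and 2-DG), at 107, 104, 106 and 91.1 in passage 15 and at 76.1, 73.4, 74.7 and 64.8 in passage 16 (adjusted p = 1.4e-05). Passages did not overlap, and the highest mean, 102.0 CPM in passage 15, was 1.86 times the lowest, 55.0 in passage 13. No other subunit of the pyruvate dehydrogenase complex differed by more than 1.06 times between passage means.

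*Me1* was at 18.4, 20.5, 19.7 and 20.1 CPM in passage 13, 25.8, 22.9, 26.7 and 28.6 in passage 15 and 31.3, 27.6, 31.6 and 35.4 in passage 16, in the same order of treatments (adjusted p = 7.0e-05). Its highest passage mean was 1.60 times the lowest. *Glud1* had means of 216, 233 and 260.4 CPM in passages 13, 15 and 16 (adjusted p = 5.8e-05), and *Mdh1* of 272, 237 and 224 (adjusted p = 6.8e-05). The order of the passages was the same in all 4 treatments for 6 of the 31 genes, which were *Pdhx*, *Cs*, *Sucla2*, *Mdh1*, *Me1* and *Glud1*. How many of all genes kept the same order was not counted. Passage means were farthest apart for *Pdhx*, *Me1* and *Mpc2*, whose ratio was 1.297. Standard errors of the change in 2-DG against 1x glucose were 0.32 for *Pdhx* and 0.25 for *Me1* without the passage in the model, and 0.08 and 0.07 with it.

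**Figure D4:**
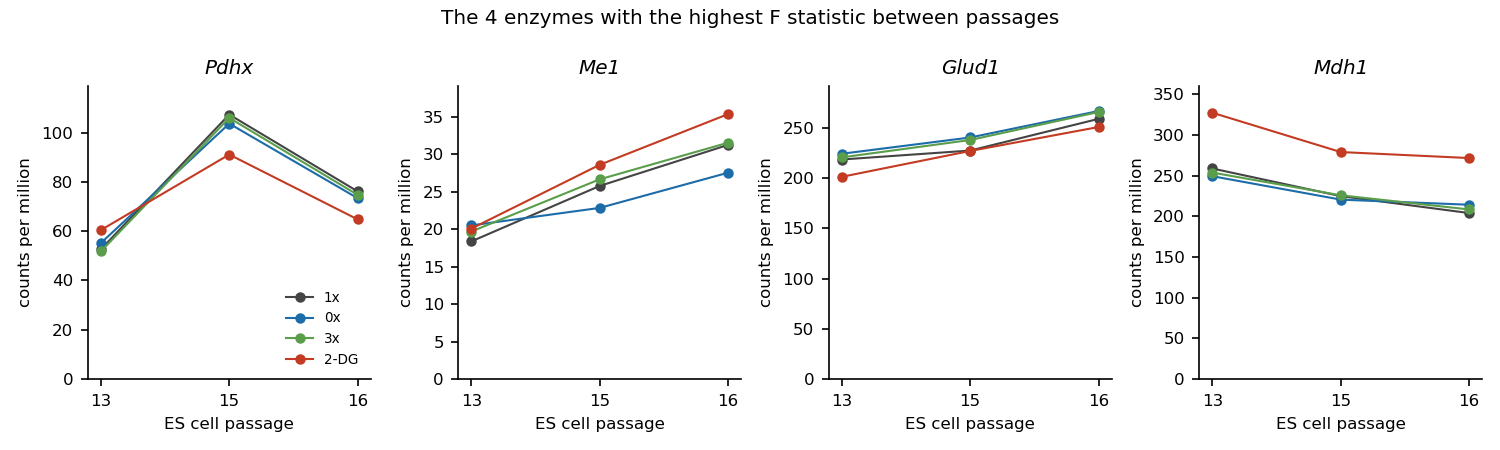
CPM (y axis, from 0) in ES cell passages 13, 15 and 16 (x axis) for the 4 genes with the highest F statistic between passages, with 1 line for the libraries of each treatment. In Pdhx the 4 lines peak together at passage 15, between 91.1 and 107 CPM, and in Mdh1 the 2-DG line runs above the other 3 at every passage.

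Several members could be measured as genes but not as transcripts. The tables divide the reads of a gene among its RefSeq transcripts, and for *Suclg2*, the GTP-forming subunit of succinyl-CoA ligase, the transcript NM_001326558.1 held 0% to 75.7% of the counts, with 0 counts in 4 of 12 libraries. Libraries of the same treatment differed in this, 75.7%, 0% and 75.4% in 1x glucose, while the gene totals were 104, 115 and 112 CPM. For *Mpc1*, XM_011246219.3 held 0% to 92.6%, XM_030249914.1 had counts in 1 library only (1x glucose, passage 16, 64.3%), and NM_018819.5 had 0 counts in all 12. The 2 transcripts of *Mdh1* held 46.6% to 63.9% and 36.1% to 53.4%. Gene totals were therefore used throughout, and no change of transcript use is reported for these genes. Besides *Got2*, near-identical pseudogene copies exist for *Mpc1* (99.7% identity over 330 bases), *Suclg2*, *Me1*, *Pdhb*, *Glul* and *Glud1*, whose counts are uncertain to that extent.

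**Figure D5:**
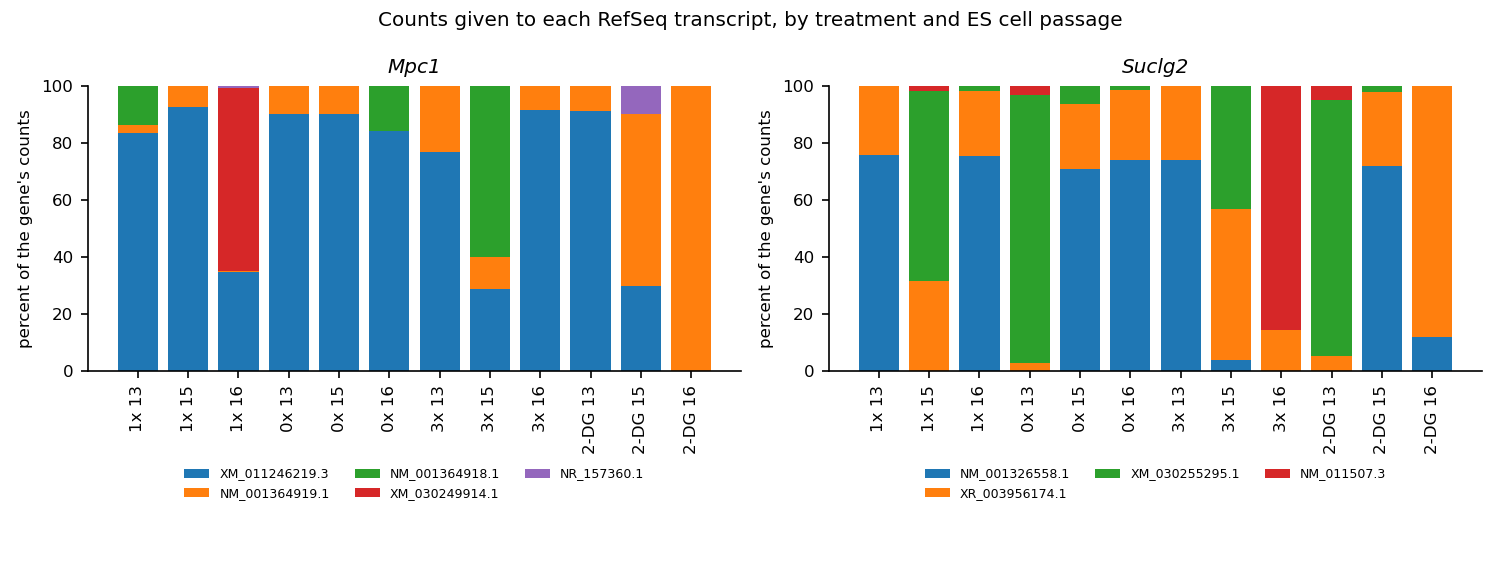
Share of each gene's counts given to each RefSeq transcript (y axis, percent, stacked to 100) in the 12 libraries (x axis, treatment and ES cell passage) for Mpc1 and Suclg2. Neighbouring bars of the same treatment differ in colour, as in 1x glucose, where NM_001326558.1 of Suclg2 holds 75.7%, 0% and 75.4%.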

How the data were processed

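Poly(A) RNA of 12 libraries (4 treatments, 3 ES cell passages each) was measured by sequencing. The authors trimmed reads with Trim Galore, aligned them with HISAT2, removed PCR duplicates with Picard and deposited StringTie estimated counts (expected counts) for 120312 RefSeq transcripts per library, on mm10 per the labels. SAMtools and DESeq2 are also named in the submitters' processing notes. Versions and the strand setting of the counting are not given in the sources used here, and removal of duplicates can lower the counts of abundant transcripts. The 3 deposited tables of the authors' DESeq2 comparisons (base mean, log2 fold change, standard error, statistic and p-values) were not used.

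Counts were summed per gene symbol (38911 genes) and rounded to whole numbers. Pyruvate carboxylase, also known as Pcx, is counted as Pc. Genes passing filterByExpr (16966) were tested by edgeR 4.0.16 in R 4.3.3 (TMM normalization, quasi-likelihood test, all 4 treatments fitted together, Benjamini-Hochberg adjustment over all genes, threshold 0.05), and every adjusted p in the text is from that fit unless another is named. Standard errors are the size of the log2 fold change over the square root of its F statistic. CPM are TMM-scaled counts-per-million, and levels per kb divide them by transcript length. Ratios of enzyme pairs were compared by exact permutation over libraries. Totals of 31902471 to 45956080 counts per library set the counting error, and 3 libraries per treatment set the precision. No 2 libraries shared more than 9.67% of values at transcripts with a mean count of at least 10, so each was counted as a sample.

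Titles give the ES cell passage, which libraries of 4 treatments shared, and do not say whether these came from a single culture. Deviations from the treatment means correlated at 0.223 to 0.804 for the 18 pairs of libraries of the same passage. For the 36 pairs that differed in both passage and treatment they correlated at -0.63 to 0.355. Pairs of the same treatment were left out. Deviations within a treatment cancel out, so these ranges are not independent. The passage was also used as a replicate block. The methods name 3 biological replicates. P-values of the unpaired fit are set against the spread between these passages. Those of the replicate block and of the test between passages are set against the spread left once passage and treatment are in the model.

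Alternatives were DESeq2 (1.42.0), its size factors, no filter, the most abundant or curated transcripts alone, only the groups compared, the replicate block, and each library left out. All 31 genes may be named, with values per library where called or in a complex with a called gene, and at most 8 other pathway genes, and 1 further gene list is not reported here. The genes, lists and tests were chosen with earlier results of these data known. The scripts were checked on simulated counts.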

Additional observations from a re-analysis of the deposited data

How the results depend on the processing

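Of the 31 genes, 6 were called in 2-DG against 1x glucose, and 14 with the replicate block, 3 with the most abundant transcript of each gene alone, 3 with curated transcripts alone and 3 with only the 2 groups fitted. Against 0x glucose, 6 became 13 with the replicate block and 3 with the most abundant transcript alone. Leaving out a library gave 3 to 5 and 3 to 4 calls, with 3 in either comparison without the 2-DG library of passage 15. The median change over the 31 ran from -0.00257 to 0.0667 and from -0.000612 to 0.0455 when a library was left out, so that its sign was not fixed. Calls between passages fell from 21 to 7 with the most abundant transcript alone and 12 with curated transcripts alone. The share of all genes called between passages in these settings was not taken. Counts in 0x and 3x glucose stayed at 0 in all 13 alternatives each. Pc and Fh1 were called in all 13 alternatives against 1x and against 0x glucose. Mpc1 reversed with curated transcripts alone, to 2.155 and 1.512. Of these transcripts, NM_001364919.1 had 8, 16 and 1 counts in 1x glucose, 20, 20 and 0 in 0x glucose and 12, 87 and 135 in 2-DG. The Me1/Me2 difference was -0.34 with the most abundant transcript alone, and the cause was not tested. Calls of Mdh1 (9 of 13 lost against 1x glucose), Idh2 (8 of 13) and Pdha1 against 0x glucose (9 of 13) lay close to the threshold, and 3 libraries per group limit smaller changes.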
